A study of Mus musculus with 4 samples.

Results

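The genes described here are the replication-linked histone genes, taken as every gene whose symbol starts with Hist1h, Hist2h, Hist3h or Hist4 in the feature table of the deposited count matrices. They number 67 of 31053 genes: 54 Hist1h, 10 Hist2h and 2 Hist3h genes and Hist4h4. By protein they are 6 linker histone (H1), 18 H2A, 18 H2B, 12 H3 and 13 H4 genes. The cells came from mice whose lungs carried orthotopically injected tumour cells labelled mouse SCLC (small-cell lung cancer), and each of 4 groups is represented by 1 droplet library of 3′ RNA ends. The control mice received vehicle and isotype IgG. The anti-PD-1 mice received an antibody against the T cell checkpoint receptor PD-1 (clone 29F.1A12, 200 µg per mouse) on 3 days a week. The YKL-5-124 mice received this inhibitor of the kinase CDK7 at 10 mg/kg on weekdays, and the combination mice received both agents. Whole perfused lungs were digested and live cells were sorted by DAPI. The sources used here give neither the tumour line and the mouse strain nor the number of mice behind a library. Where 4 values follow each other without labels, they stand in the order control, anti-PD-1, YKL-5-124, combination.

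Each S phase doubles the chromatin, and the genes for the core histones H2A, H2B, H3 and H4 and the linker histone H1 are switched on together to supply it. Their mRNAs are unusual in that most end in a short conserved stem-loop, bound by the protein SLBP, instead of a poly(A) tail. Variant histones such as H3.3 and H2A.Z come from other genes with ordinary polyadenylated mRNAs that are made throughout the cell cycle. The libraries were primed on poly(A) stretches, so the level of a histone gene here counts its captured molecules and does not measure its whole mRNA.

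The stem-loop was searched for in the bases after the stop codon of 1 GENCODE M21 transcript model per gene, on the transcript strand, as GGNNNNTTNNNNNNCC with the last 6 bases complementary to the first 6. It was found in 44 of the 67 genes (65.7%) and in 0.239% of 20933 other protein-coding genes with bases after the stop codon. For these other genes a feature in any of their protein-coding models counted, here and below. Of the 23 member models without the stem-loop, 15 end within 30 bases of the stop codon, among them the model of the linker histone gene Hist1h1b. The sites below show the stem-loop in capitals after the 14 bases that precede it, for 8 of the members described below, because the stretch before the stem-loop differs between them.
Hist1h2ap: agaaaaaaaaaaaaGGCTCTTTTCAGAGCC
Hist1h2ae: gtaaaaaaaacaaaGGCTCTTTTCAGAGCC
Hist1h1e: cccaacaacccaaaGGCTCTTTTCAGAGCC
Hist1h1c: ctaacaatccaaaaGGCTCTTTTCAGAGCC
Hist3h2a: ttacagacaccaaaGGCTCTTTTCAGAGCC
Hist3h2ba: gcccccaacccaaaGGCTCTTTTCAGAGCC
Hist1h4d: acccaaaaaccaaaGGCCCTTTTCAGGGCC
Hist1h4i: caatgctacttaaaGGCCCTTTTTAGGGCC
In Hist1h2ap the stem-loop follows a run of 12 A directly. Such a run after the stop codon was found in 3 of the 67 members and in 9.04% of the other protein-coding genes. In Hist1h2ae the same stretch holds a run of 8 A.

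These sites lie on GRCm38 in the 3′ untranslated regions of single-exon genes. The Hist1h sites are on chromosome 13, at chr13:21833029-21833058 (minus strand) for Hist1h2ap, chr13:23570668-23570697 (minus) for Hist1h2ae and chr13:23621782-23621811 (minus) for Hist1h1e. Hist1h1c has its site at chr13:23739498-23739527 (plus), Hist1h4d at chr13:23581936-23581965 (plus) and Hist1h4i at chr13:22040966-22040995 (minus). The Hist3h pair is on chromosome 11, with the site of Hist3h2a at chr11:58955158-58955187 and that of Hist3h2ba at chr11:58949335-58949364, both on the plus strand. The models of Hist1h2ae, Hist1h1c, Hist3h2a, Hist3h2ba, Hist1h4d and Hist1h4i run on past the stem-loop and hold a poly(A) signal (AATAAA or ATTAAA) beyond it. A signal after the stop codon was found in 21 of the 67 members and in 90.9% of the other protein-coding genes. The Hist1h2ap model ends 3 bases after the stem-loop and holds no signal. Hist1h1e runs on for 1153 bases with none.

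Many members are near-identical copies. Of 90-base windows, 363 of the 393 in the Hist1h2ap model also occur in another gene, foremost Hist1h2ao, and the 30 that do not are at its 5′ end. More than 50% of the windows were shared in 27 of the 67 members. The sources used here do not say how reads that match several of these genes were counted, so the split of counts between such copies is uncertain. In Hist1h1e 482 of 1841 windows were shared, foremost with Hist1h2be, and all of its last 100 windows, at the 3′ end, were among them. These 2 genes are not copies here: their models overlap on the minus strand of chromosome 13. Hist1h1e spans 23620629 to 23622558 and Hist1h2be 23583670 to 23621124. How reads in such an overlap were counted is not stated either, so the count of Hist1h1e is also uncertain. For Hist1h1b, Hist1h1a and Hist3h2ba no window was shared.

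The libraries held 17329001 to 22950622 UMIs (unique molecular identifiers, 1 per captured molecule), and 2736 to 4152 barcodes per library passed as cells, with medians of 1939 to 2239 UMIs. The libraries shared cell barcodes: 658 of the kept barcodes were kept in at least 2 libraries and 450 in all 4, with 469 to 537 shared between any pair against 12.9 to 22.8 by chance. Of the 14411 kept cells, 1512 (10.5%) were shallow copies, with at least 10-fold fewer UMIs than the same barcode had in another library, and for 96.3% of them the deep barcode was a tumour-like cell. They made up 1045 of the 3213 tumour-like cells but 2.09 to 4.52% of the UMIs of these cells in a library. Values without them are given below for the summed histone ratios in tumour-like and T cell-like cells. They are also given for Hist1h2ap in anti-PD-1 tumour-like cells and for the ratios by G2/M list. The cell cycle classes and the other levels, ratios and calls include the copies. Cells were assigned to a lineage by marker genes. In tumour-like cells all 16 tumour markers, neuroendocrine and epithelial genes such as Chga and Epcam, were found in every library, at a summed level of 7301 to 8249 CPM (UMIs scaled to a common total) against at most 95.7 CPM in T cell-like cells. All 9 T cell markers were found in the T cell-like cells of every library, and all 12 neutrophil markers in the neutrophil-like cells. These markers made the assignment, so their levels describe it and are no separate evidence of cell identity.

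In all cells together the histone genes gave 91813 UMIs, or 1400 CPM. A few genes held nearly all of them. The 10 members with at least 1000 UMIs held 90.2%, 25 had at least 100 but under 1000, 30 had 1 to 99, and Hist1h2bq and Hist1h2ba had none. The linker histone gene Hist1h1e led with 17350 UMIs, followed by the H2A gene Hist1h2ap (13047), the H2B gene Hist1h2bc (11611), the H2A gene Hist1h2ae (9796) and the H2B gene Hist3h2ba (9190). Next came Hist3h2a (6293), the linker histone genes Hist1h1b (5911) and Hist1h1c (5563), Hist1h4d (2711), which was the first H4 gene, and Hist1h1a (1346). The remaining members of the leading 15 were Hist2h2ac, Hist1h2af, Hist1h1d, Hist1h2ac and Hist1h4i, with 836 to 468 UMIs.

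The core histones are packed in equal amounts into each nucleosome, but their mRNAs were captured unequally. H2A genes held 35.6% of the histone UMIs, H1 genes 33.5%, H2B genes 24.4%, H4 genes 5.23% and H3 genes 1.25%. None of the 12 H3 genes reached 1000 UMIs. The variant gene H3f3b, which encodes H3.3 from a polyadenylated mRNA, stood at 6365 to 6980 CPM in tumour-like cells, above the 1915 to 2390 CPM of all 67 histone genes summed there. Of the 10 leading members, 6 have a poly(A) signal after the stop codon in their model, against 15 of the other 57. Among all 67 models, 15 end within 30 bases of the stop codon and hold no signal. Hist1h1b is the one leading member among them. The part of such short models in this contrast was not tested.

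Each lineage had its own order of histone genes. In tumour-like cells Hist1h1e was highest at 416 CPM over the 4 libraries (398 to 436 by library), followed by Hist1h2ap at 338 (197 to 659), Hist1h2ae at 248 (220 to 284) and Hist3h2ba at 248 (235 to 274). Hist3h2ba stayed at 3.29 to 23.2 CPM in the other 5 lineages. The 4 tumour-like libraries lay within a narrow range for each of these genes except Hist1h2ap.

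Whether the neutrophil-like cells included dividing cells was not tested. A list of G2/M genes summed to 2147 to 3361 CPM by library in them, against 2309 to 4627 CPM in T cell-like cells. A list of S phase genes summed to 451 to 1258 CPM, against 1192 to 2270 CPM in T cell-like cells. Neutrophil-like cells were dominated by Hist1h2bc at 526 CPM (483 to 733 by library), 52.4% of their histone UMIs, and Hist1h1c at 217 CPM (191 to 251). Next was Hist1h4i at 42.7 CPM. This H4 gene gave 16 UMIs in all tumour-like cells, or 0.467 CPM (95% Poisson interval 0.267 to 0.758). It stood at 8.96 to 17.9 CPM in the other 4 lineages. Hist1h4d, the leading H4 gene of tumour-like cells at 63.5 CPM, stood at 4.89 CPM in neutrophil-like cells. By library Hist1h4i was at most 0.724 CPM in tumour-like cells. In neutrophil-like cells it was at least 34.2 CPM, from 8, 7, 55 and 26 UMIs. How many other genes separate these lineages in this way was not counted.

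In lymphocytes a linker histone gene was highest, as in tumour-like cells and in monocyte- or macrophage-like cells. NK-like cells had Hist1h1e at 237 CPM (199 to 281 by library), Hist1h1c at 132 and Hist1h1b at 62.5. B cell-like cells had Hist1h1e at 119 CPM, Hist3h2a at 117 and Hist1h1c at 97.2. T cell-like cells had Hist1h1b at 96.8 CPM, Hist1h1e at 87.3 and Hist1h2ap at 63.6, and the first and last of these varied widely between libraries, from 18.9 to 147 CPM and from 13.2 to 91.1 CPM. Monocyte- or macrophage-like cells had Hist1h1c at 115 CPM, Hist1h2bc at 59.1 and Hist3h2a at 52.7.

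**Figure D1:**
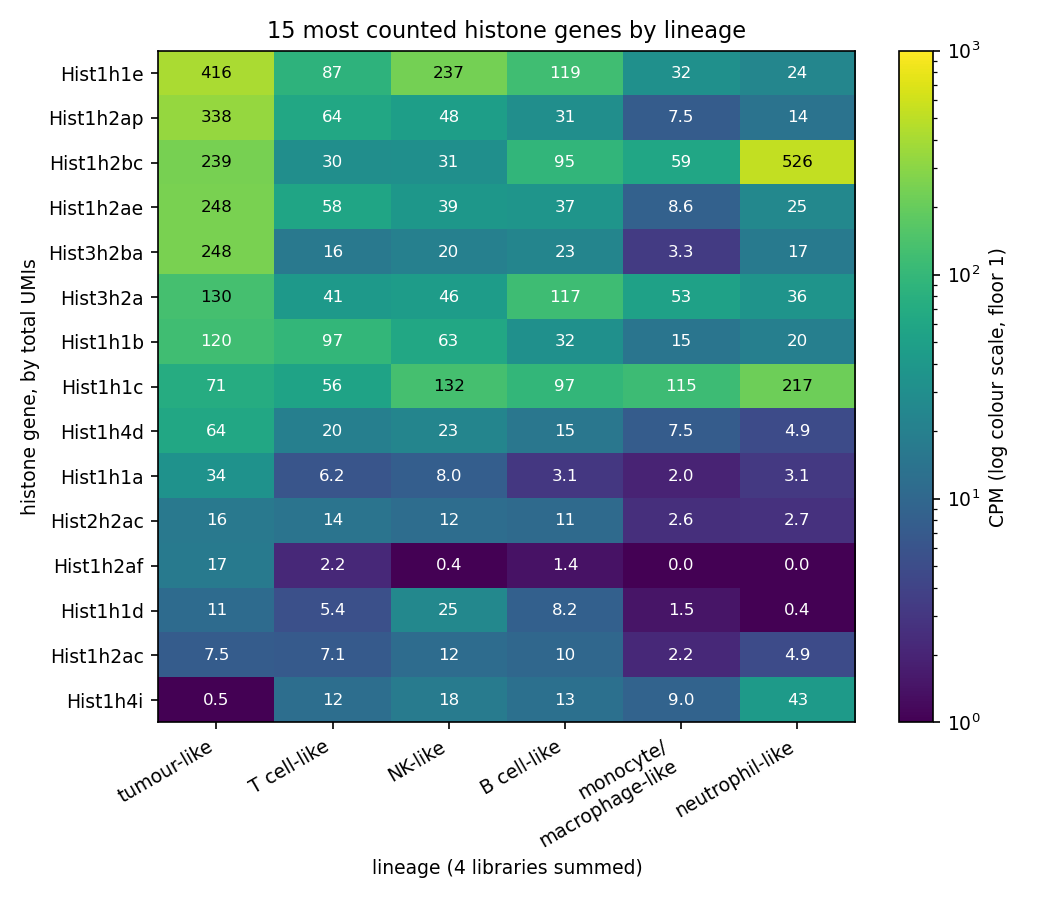
Level of the 15 most counted histone genes (rows) in 6 lineages (columns), in CPM of the summed UMIs of 4 libraries, on a log colour scale with the value printed in each cell. Hist3h2ba stands out in tumour-like cells (248 CPM), Hist1h2bc and Hist1h1c in neutrophil-like cells (526 and 217 CPM), and Hist1h4i is near 0 in tumour-like cells.

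Free RNA, read from barcodes with 10 to 100 UMIs, held histone genes at 874 to 980 CPM. This is above every library of T cell-like cells (389 to 754 CPM) and B cell-like cells (600 to 737 CPM). It is also above every library of monocyte- or macrophage-like cells (263 to 401 CPM), and NK-like cells spanned 778 to 924 CPM. The part of free RNA in the levels of these lineages was not tested.

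Within the tumour-like cells the leading histone genes formed 2 sets by cell cycle class, grouped here after their values were seen. The 2231 tumour-like cells with at least 1500 UMIs were thinned to 1500 UMIs each and split, within each library, at the median of a list of 46 S phase genes and at the median of a list of 54 G2/M genes; 982 cells of lower depth were left out. The split is a cut through a range: 18.7 to 23.9% of a library's cells lay within 1 UMI of the S phase median and 5.31 to 7.20% within 1 UMI of the G2/M median. In the 588 cells low for both lists Hist1h1b stood at 11.3 CPM (95% Poisson interval 5.44 to 20.9), in the 561 cells high for S phase alone at 23.8 (14.5 to 36.7), in the 506 cells high for both at 216 (184 to 252) and in the 576 cells high for G2/M alone at 156 (131 to 185). Hist1h2ap followed with 51.0, 49.9, 476 and 346 CPM in the same order of classes, and Hist1h2ae with 52.2, 36.8, 445 and 345 CPM. These genes were low in cells with a high S phase list and a low G2/M list and high wherever the G2/M list was high.

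Hist1h1a (1.13, 8.32, 73.8 and 45.1 CPM, the first from 1 UMI) and Hist1h4d (23.8, 17.8, 105 and 106 CPM) were likewise higher in both classes with a high G2/M list. Hist1h1e kept a floor, with 162, 183, 523 and 507 CPM. In each of the 4 libraries both G2/M-high classes were above both G2/M-low classes for Hist1h1b, Hist1h1a, Hist1h2ap, Hist1h2ae, Hist1h1e and Hist1h4d.

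The second set was lower in cells with a high S phase list. Hist1h2bc was highest in cells low for both lists, at 414 CPM (372 to 459), and lowest in cells high for S phase alone, at 109 (88.1 to 134), with 155 and 329 CPM in the classes high for both and for G2/M alone. Hist1h1c (116, 33.3, 63.2 and 98.4 CPM), Hist3h2a (192, 102, 85.6 and 129 CPM) and Hist3h2ba (330, 156, 206 and 256 CPM) were likewise highest in the cells low for both lists. This held in each of the 4 libraries for Hist1h2bc and Hist3h2ba and in all but 1 library each for Hist1h1c and Hist3h2a, where cells high for G2/M alone led. All 4 genes of this set hold a poly(A) signal after the stop codon in their models. In the first set Hist1h2ae and Hist1h4d do, and Hist1h1b, Hist1h2ap, Hist1h1a and Hist1h1e do not. The Hist1h1b model holds 0 bases after the stop codon, so no signal could be found in it. Those of Hist1h1a and Hist1h2ap hold 48 and 57 bases there, against 213 to 1700 in the second set. For these genes of the first set a missing signal and a short model cannot be told apart.

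Slbp and genes of the S phase list, which made the classes, did not share 1 order. Slbp, the stem-loop binding protein, stood at 471, 976, 776 and 528 CPM, and Mcm5, a subunit of the replicative helicase from the S phase list, at 101, 278, 194 and 98.4 CPM. Rrm2, a subunit of ribonucleotide reductase and also on the S phase list, stood at 151, 437, 954 and 416 CPM and was highest in cells high for both lists, as were Hist1h1b, Hist1h2ap and Hist1h2ae. Slbp and Mcm5 peaked in cells high for S phase alone, the class in which the histone genes summed to their lowest level, 806 CPM (746 to 869), against 2601 CPM (2487 to 2718) in cells high for both. Top2a, a member of the G2/M list that made the classes, stood at 138, 240, 1574 and 1477 CPM.

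**Figure D2:**
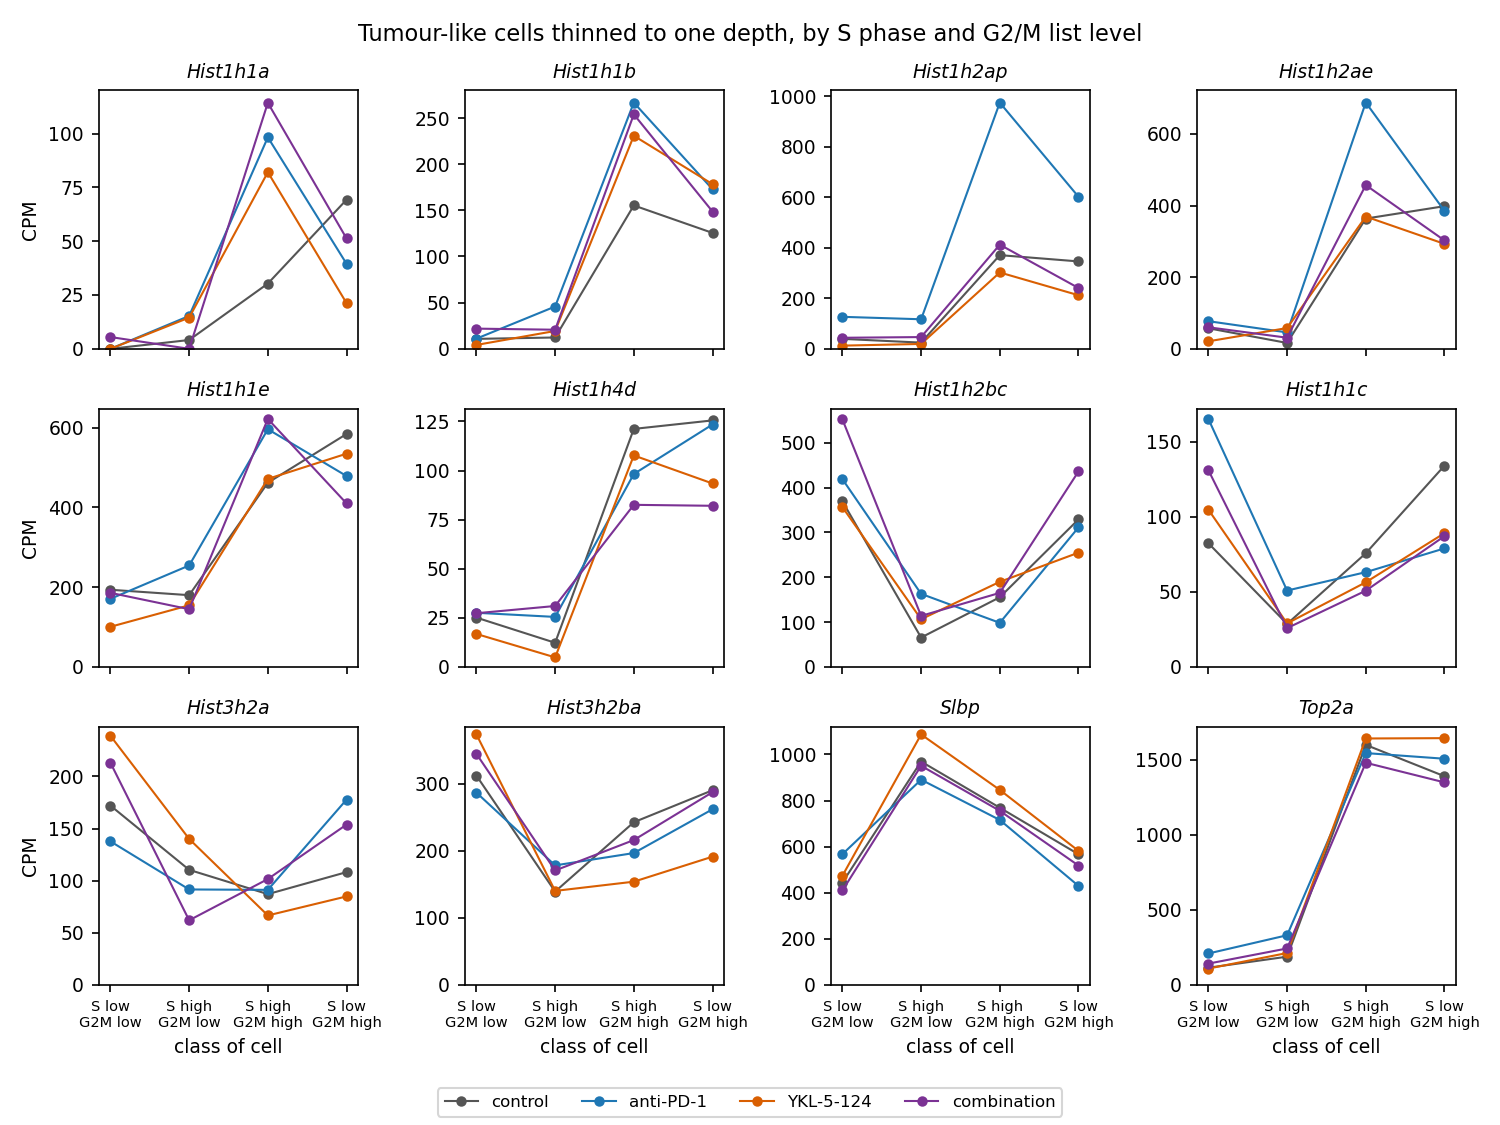
Level in CPM (vertical axis, starting at 0) of 10 histone genes and of Slbp and Top2a in tumour-like cells thinned to 1500 UMIs, in 4 classes of cells above or below the median of the S phase and G2/M lists (horizontal axis); each line is 1 library. Hist1h1a, Hist1h1b, Hist1h2ap, Hist1h2ae, Hist1h1e and Hist1h4d are higher in the G2/M-high classes, Hist1h2bc, Hist1h1c, Hist3h2a and Hist3h2ba are highest in cells low for both, and the anti-PD-1 line of Hist1h2ap lies above the other 3 in every class.

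Between the 25% of tumour-like cells with the highest and the 25% with the lowest G2/M list of their library, the ratio was 51.0 for Hist1h1b (187 against 4 UMIs), 44.5 for Hist1h2ap (367 against 9), 16.7 for Hist1h2ae (414 against 27) and 4.07 for Hist1h1e (481 against 129). Without the copied barcodes these ratios were 50.3, 45.1, 17.2 and 4.11. For Hist1h2bc the ratio was 0.653 and without copies 0.645. Between the 25% with the highest and lowest S phase list the ratio was nearer to 1 for Hist1h1b (1.98) and Hist1h2ap (1.53) and farther from it for Hist1h2bc (0.204). Cells of a library share their mice and their reagents, so these ratios describe the 4 libraries.

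The treatments were compared with control first in the tumour-like cells (911 control, 769 anti-PD-1, 797 YKL-5-124 and 736 combination cells). With 1 library per group there is no replicate and no test; intervals cover counting error only, and a gene was called at 1.5-fold after adding 10 CPM to both levels. CDK7 activates the cyclin-dependent kinases of the cell cycle and also phosphorylates RNA polymerase II. All histone genes summed to 1949 CPM in control, 2390 in anti-PD-1, 1915 in YKL-5-124 and 2118 in the combination. The ratio to control was 1.23 (95% interval 1.20 to 1.25) for anti-PD-1, 0.983 (0.963 to 1.00) for YKL-5-124 and 1.09 (1.06 to 1.11) for the combination. Without the copied barcodes the ratios were 1.24, 0.984 and 1.09.

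Most of the anti-PD-1 difference lay in Hist1h2ap. This H2A gene stood at 276 CPM in control, 659 in anti-PD-1, 197 in YKL-5-124 and 274 in the combination. The anti-PD-1 library stood alone at the top, and control and the combination differed by less than counting error. Its ratio to control was 2.39 (2.29 to 2.50) in anti-PD-1, or 2.45 without copied barcodes, 0.716 (0.674 to 0.761) in YKL-5-124 and 0.995 (0.940 to 1.05) in the combination. With Hist1h2ap taken out of the sum, a step chosen after its value was seen, the histone ratio was 1.03 for anti-PD-1, 1.03 for YKL-5-124 and 1.10 for the combination.

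Of the 67 members 14 reached a mean of 10 CPM over the tumour-like libraries, and these alone could be called. In anti-PD-1 Hist1h2ap was called higher and none lower, where 0.481% of 8935 genes were called higher and 0.0% lower. In YKL-5-124 none of the 14 was called, where 0.302% of genes were called higher and 0.101% lower. In the combination none was called either, against 1.26% and 0.19% of genes. The median log2 ratio of the 14 was 0.02, 0.02 and 0.12 in the 3 comparisons, beside 0.01, 0.04 and 0.01 over all genes measured. All 46 S phase genes were measured, and 0, 0 and 1 of them were called higher. The highest of them were Dut (551 to 609 CPM by library), Rrm2 (402 to 525), Tyms (405 to 435) and Pcna (300.2 to 339).

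Below the calling size a few members differed by more than counting error. The linker histone gene Hist1h1b stood at 102, 116, 137 and 129 CPM, with ratios of 1.14 (1.04 to 1.25), 1.34 (1.24 to 1.46) and 1.26 (1.16 to 1.38). All 3 treated libraries were above control. Hist1h2bc stood at 212, 215, 241 and 302 CPM, with a combination ratio of 1.42 (1.34 to 1.51). Hist1h1e, the most counted member, stayed between 398 and 436 CPM.

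**Figure D3:**
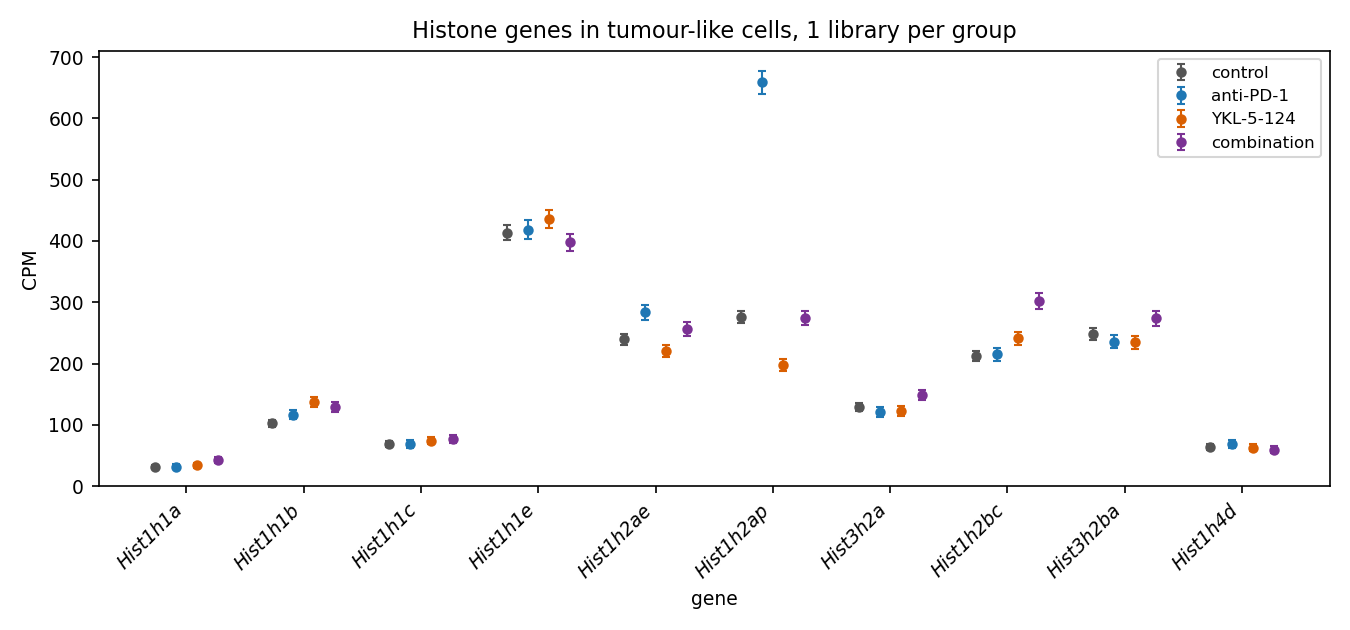
Level in CPM (vertical axis, starting at 0) of 10 histone genes in tumour-like cells of the 4 libraries; points are 1 library each and bars are exact 95% Poisson intervals, which cover counting error only. Hist1h2ap spans 197 to 659 CPM, Hist1h2bc 212 to 302 CPM and Hist1h1b 102 to 137 CPM.

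Hist1h2ap was followed through the other lineages against Hist1h1b, a gene of the same set with no shared windows; the pair was chosen after the values were seen. In tumour-like cells the libraries had 2.69 Hist1h2ap UMIs per Hist1h1b UMI in control, 5.66 (5.26 to 6.09) in anti-PD-1, 1.44 in YKL-5-124 and 2.12 in the combination. In T cell-like cells the same ratios were 0.697 (0.391 to 1.22), 2.97 (1.93 to 4.69), 0.448 and 0.620, and in B cell-like cells 0.957 (0.508 to 1.80), 3 (54 against 18 UMIs, 1.73 to 5.44), 0.682 and 0.472. In NK-like cells they were 0.857 (0.431 to 1.69), 1.96 (1.16 to 3.39), 0.365 and 0.623. The anti-PD-1 library was highest in each of these 4 lineages, and its interval lay above those of all other libraries in tumour-like cells and T cell-like cells.

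Anti-PD-1 stood highest in free RNA as well, which had 0.848 (0.688 to 1.04) Hist1h2ap UMIs per Hist1h1b UMI in anti-PD-1 against 0.554 (0.445 to 0.688) in control, 0.447 in YKL-5-124 and 0.462 in the combination. Hist1h2ae per Hist1h1b was 2.34 in control and 2.43 in anti-PD-1 in tumour-like cells, 0.818 and 1.79 in T cell-like cells, and 1.11 and 0.789 in free RNA. Among 3663 genes with at least 50 CPM, Hist1h2ap had the highest log2 ratio to control in anti-PD-1 tumour-like cells, 1.23, and it ranked 13 from the lowest of 3733 genes in YKL-5-124, at -0.46. Within the cell cycle classes the anti-PD-1 library also led, with 975 CPM against 371 in control in cells high for both lists and 602 against 346 in cells high for G2/M alone. With 1 library per group the treatment and the library cannot be told apart.

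**Figure D4:**
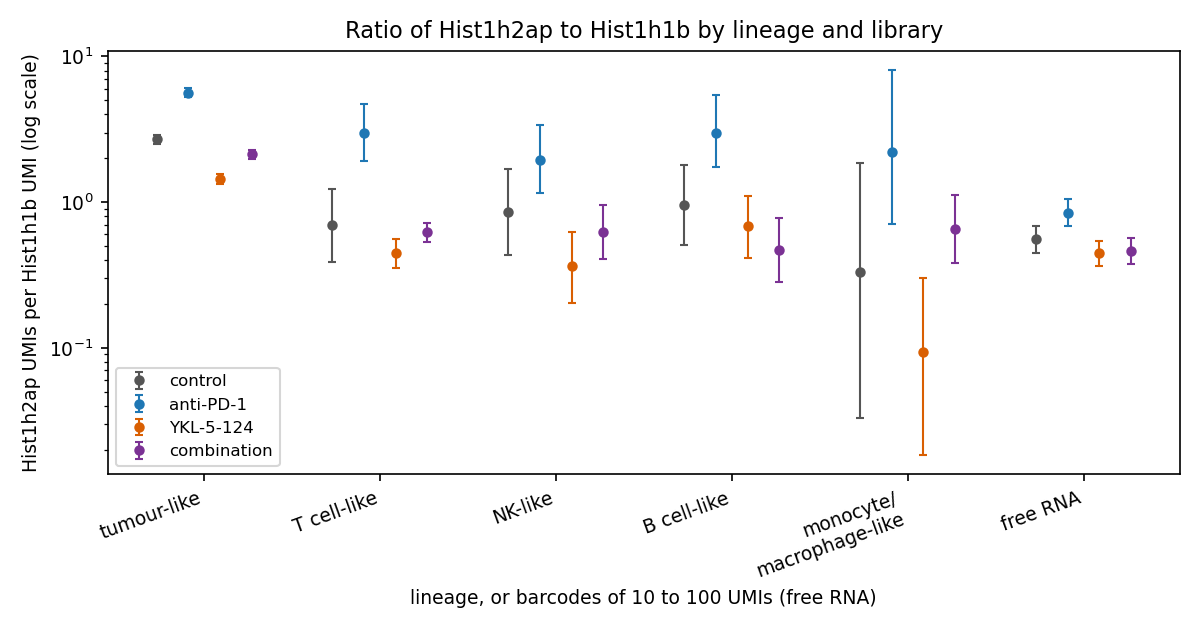
Hist1h2ap UMIs per Hist1h1b UMI (vertical log axis) in 5 lineages and in free RNA, 1 point per library with a 95% conditional binomial interval; neutrophil-like cells are left out because the control library had no UMI of either gene. The anti-PD-1 point is the highest of the 4 in every column shown, at 5.66 in tumour-like cells and 0.848 in free RNA. In the neutrophil-like cells the ratio was 1 in anti-PD-1 (1 against 1 UMI). It was higher in the combination there, at 3.75 (15 against 4 UMIs).

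In the T cell-like cells (777 control, 527 anti-PD-1, 667 YKL-5-124 and 957 combination cells) the summed histone UMIs were higher with YKL-5-124 and with the combination. Their summed level was 389 CPM in control, 425 in anti-PD-1, 649 in YKL-5-124 and 754 in the combination, so the pair of groups that received the CDK7 inhibitor stood above the pair that did not. The ratio to control was 1.09 (0.974 to 1.22) for anti-PD-1, 1.67 (1.52 to 1.84) for YKL-5-124 and 1.94 (1.78 to 2.11) for the combination. Without copied barcodes it was 1.09, 1.68 and 1.94. The result depended on the depth of the cells: with every cell thinned to 800 UMIs the ratios were 0.825, 0.971 and 1.13, and with cells weighted equally 0.951, 1.03 and 1.23. The S phase list had ratios of 1.03 (0.965 to 1.10), 1.90 (1.81 to 2.01) and 1.71 (1.63 to 1.80), and the G2/M list 1.05, 2.004 and 2.002. The 3 comparisons share the control library.

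Hist1h1b, Hist1h2ae, Hist1h2ap and Hist1h4d, all of the first set, were called higher in 1 or more comparisons. Hist1h1b stood at 18.9 CPM in control, 22.2 in anti-PD-1, 146 in YKL-5-124 and 147 in the combination, with ratios of 7.71 (5.35 to 11.4) and 7.77 (5.45 to 11.4) for the last 2. Hist1h2ae stood at 15.5, 39.7, 81.6 and 76.3 CPM. Hist1h2ap stood at 13.2, 65.7, 65.3 and 91.1 CPM, so it was about as high in anti-PD-1, where Hist1h1b was near control, as in YKL-5-124. Hist1h4d stood at 7.45, 19.1, 15.7 and 29.1 CPM. With cells weighted equally the YKL-5-124 ratio was 4.22 for Hist1h1b and 1.91 for Hist1h2ap, and the combination ratio of Hist1h2ap was 4.06. In thinned cells the Hist1h2ap ratio was 2.73 in anti-PD-1, 2.51 in YKL-5-124 and 4.37 in the combination.

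The genes of the second set were called in none of the comparisons. Hist1h2bc stood at 23.5, 29.8, 32.1 and 33.8 CPM. Hist3h2ba stood at 16.04, 16.8, 16.3 and 15.7 CPM, Hist3h2a at 44.7, 35.1, 42.0 and 40.5, and Hist1h1c at 64.7, 42.8, 51.9 and 57.9. Hist1h1e, of the first set, stood at 77.9, 68.0, 78.7 and 106 CPM, and its YKL-5-124 ratio of 1.01 was 0.628 with cells weighted equally and 0.509 in thinned cells. Markers of other cell types also differed between the libraries of T cell-like cells. Neutrophil markers (7 of 12 found in every library, 1 at 0 in all) summed to 21.8, 47.4, 209 and 34.8 CPM. Monocyte or macrophage markers (4 of 14) summed to 77.3, 81.0, 117 and 151 CPM, lung epithelial markers (3 of 10, with 2 at 0) to 41.2, 39.7, 71.1 and 103 CPM, and plasma cell markers (7 of 8) to 136, 173, 51.9 and 41.2 CPM. Their part in the result was not tested.

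Of the members 11 were measured in T cell-like cells. In anti-PD-1 3 were called higher (Hist1h2ap, Hist1h2ae and Hist1h4d) and Hist2h2ac lower, on 5 against 19 UMIs, where 2.58% of 6785 genes were called higher and 1.02% lower. In YKL-5-124 3 were called higher (Hist1h1b, Hist1h2ae and Hist1h2ap) and none lower, where 6.26% of genes were called higher and 0.84% lower. In the combination those 3 and Hist1h4d were called higher and none lower, against 7.68% and 1.46% of genes. In thinned cells 3 members were higher and 2 lower in YKL-5-124, and 4 higher and 1 lower in the combination. The shares of all genes given here are for unthinned sums, so the thinned counts cannot be set against them. The median log2 ratio of the 11 was 0.04, 0.33 and 0.40, beside 0.03, 0.10 and 0.08 over all genes measured. Of the S phase list 36 genes were measured, and 0, 22 and 21 were called higher, with median log2 ratios of 0.06, 0.79 and 0.69.

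The S phase genes called higher in YKL-5-124 and the combination included Rrm2 and Mcm5. Rrm2 stood at 36.1, 33.6, 159 and 140 CPM. Mcm5 stood at 26.9, 29.0, 83.4 and 67.6 CPM, and the sliding clamp gene Pcna at 75.05, 103, 137 and 128. Mki67 and Top2a, markers of dividing cells, stood at 22.9 and 57.9 CPM in control and at 119 and 199 CPM in the combination.

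**Figure D5:**
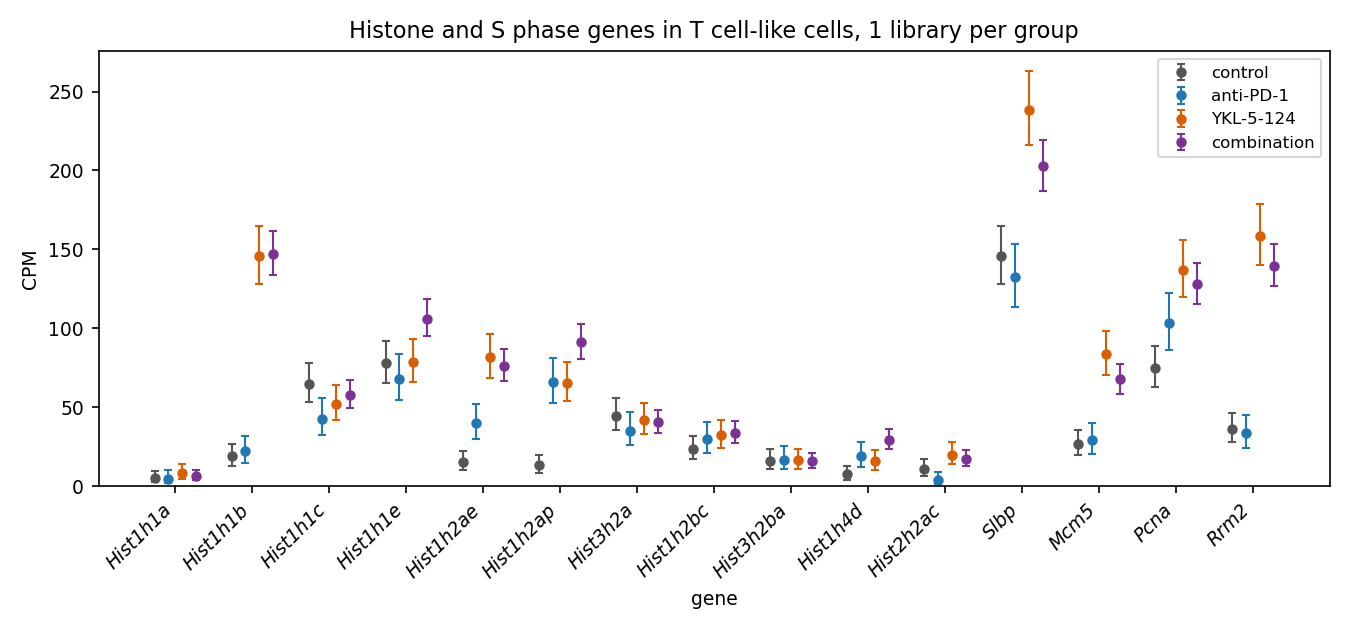
Level in CPM (vertical axis, starting at 0) of 11 histone genes, Slbp and 3 S phase genes in T cell-like cells of the 4 libraries; points are 1 library each and bars are exact 95% Poisson intervals for counting error. Hist1h1b, Hist1h2ae, Mcm5 and Rrm2 are high in YKL-5-124 and the combination, Hist1h2ap is high in all 3 treated libraries, and Hist3h2ba stays between 15.7 and 16.8 CPM.

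Few T cell-like cells carried these counts. The 33 Hist1h1b UMIs of the control library came from 11 cells, the 250 of YKL-5-124 from 34 cells, of which the 10 highest held 82.0%, and the 439 of the combination from 66 cells. The 86 Hist1h2ap UMIs of the anti-PD-1 library came from 22 cells, and its 10 highest cells held 86.0%. In tumour-like cells the same genes were spread over 211 to 301 cells per library. Within T cell-like cells thinned to 800 UMIs, Hist1h1b stood at 7.53 CPM in the 1328 cells with no S phase UMI and at 244 CPM in the 220 cells with 3 or more, a ratio of 32.4 (15.1 to 79.9).

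The share of cells with several histone UMIs moved with depth. Thinned to 800 UMIs, 1.05% (exact binomial interval 0.455 to 2.06) of control T cell-like cells had at least 3 histone UMIs, against 1.76% (0.808 to 3.32) in anti-PD-1, 1.98% (1.06 to 3.36) in YKL-5-124 and 2.26% (1.40 to 3.43) in the combination. The unthinned shares were 4.25, 6.83, 8.25 and 12.2%. The thinned shares with at least 1 histone UMI had another order, at 24.7% (21.7 to 27.9) in control, 19.0% (15.7 to 22.7) in anti-PD-1, 20.3% (17.3 to 23.6) in YKL-5-124 and 23.8% (21.1 to 26.7) in the combination, so control was highest by this count. Thinned cells with at least 3 S phase UMIs were 4.47% in control, 4.50% in anti-PD-1, 9.76% in YKL-5-124 and 10.7% in the combination. Among those S phase cells 1 of 34 in control, 1 of 23 in anti-PD-1, 9 of 64 in YKL-5-124 and 15 of 99 in the combination had at least 3 histone UMIs.

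In the other lineages the summed level was compared first. NK-like cells stood at 924, 778, 923 and 826 CPM, and B cell-like cells at 721, 600, 691 and 737 CPM. Monocyte- or macrophage-like cells stood at 401, 263, 315 and 374 CPM, lowest in anti-PD-1 with a ratio of 0.655 (0.535 to 0.801). Neutrophil-like cells stood at 956, 864, 931 and 1394 CPM, with a combination ratio of 1.46 (1.20 to 1.79). In them Hist1h2bc stood at 505, 503, 483 and 733 CPM, the combination being the one library above the rest. Tumour markers in the neutrophil-like cells (8 of 16 found in every library) summed to 161, 468, 428 and 667 CPM, lowest in control and highest in the combination, and their part in the result was not tested.

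Some members differed more between libraries than the sums did. Hist1h1b in NK-like cells stood at 33.9 CPM in control and 39.1 in anti-PD-1 against 103 in YKL-5-124 and 76.4 in the combination. These levels came from 21, 23, 52 and 61 UMIs. Hist1h1c in NK-like cells ran the other way, at 192, 127, 123 and 93.9 CPM. Hist1h2bc in B cell-like cells stood at 70.2 and 54.9 CPM in control and anti-PD-1 and at 121 and 130 CPM in YKL-5-124 and the combination. By the calling rule, 1 of 15 members measured in NK-like cells was higher and 1 lower in YKL-5-124, against 6.88% and 5.89% of genes. In the combination 1 was higher and 2 lower, against 6.09% and 4.15%. In anti-PD-1, 1 was higher and 1 lower, against 7.06% and 5.43%. Of 13 in B cell-like cells 1 was higher and 2 lower in anti-PD-1, against 3.68% and 3.11%. In YKL-5-124, 2 were higher and 0 lower, against 3.26% and 1.68%. In the combination 2 were higher and 1 lower, against 4.29% and 2.85%. Of 5 in monocyte- or macrophage-like cells 0 were higher and 2 lower in anti-PD-1, against 6.97% and 5.09%. None was called in YKL-5-124 (4.91% and 4.15% of genes) or the combination (4.99% and 3.45%). Of 12 in neutrophil-like cells 3 were higher and 2 lower in anti-PD-1, against 24.2% and 16.8%. In YKL-5-124 4 were higher and 2 lower (16.9% and 20.7%), and in the combination 6 and 0 (23.9% and 13.5%). Hist1h2ap and Hist1h1b, higher in each, had 0 control UMIs.

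The machinery of histone mRNA differed little in tumour-like cells. Of 15 genes for histone mRNA transcription and 3′ end processing 12 were measured and none was called in any comparison. Slbp stood at 648, 611, 714 and 626 CPM, the decay factor gene Eri1 at 144, 152, 170 and 171 CPM, and Casp8ap2, a component of the histone locus body, at 159, 146, 162 and 151 CPM. All 12 histone chaperones were measured, led by Rbbp7 at 549 to 627 CPM and Nasp at 466 to 516 CPM. Asf1a, which hands H3 and H4 to chromatin assembly, was the one called, higher in the combination, at 72.8 against 44.5 CPM in control. None of 11 variant histone genes outside the member list was called.

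In T cell-like cells, where 2.58%, 6.26% and 7.68% of all genes were called higher in the 3 comparisons, 12 of the 15 processing genes were measured. Slbp stood at 146, 132, 238 and 203 CPM and was called higher in YKL-5-124, together with the cleavage factor gene Cstf2 (9.74 and 24.5 CPM in control and YKL-5-124). In anti-PD-1 Lsm10, a subunit of the U7 snRNP that processes histone mRNA, was called lower (39.0 and 20.6 CPM in control and anti-PD-1), and in the combination none was called. Of 9 measured chaperones, Asf1a was called higher in anti-PD-1 and the combination (17.2, 32.1, 25.7 and 38.8 CPM), Asf1b, its paralog, in YKL-5-124 and the combination (24.1, 20.6, 83.4 and 70.6 CPM), and Rbbp7 in YKL-5-124. Of 9 measured variants, H2afz (796, 827, 1274 and 1462 CPM), H2afx and H2afy were called higher in YKL-5-124 and in the combination, H2afy also in anti-PD-1 (63.6, 105, 103 and 134 CPM), and H1f0, a replication-independent linker histone, in the combination at 103 against 42.4 CPM in control. H3f3b stood at 2683, 2313, 2420 and 2531 CPM.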

How the data were processed

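The 4 libraries were made with a 3′ droplet kit (v2), 1 per group. Per the submitters' processing notes the authors ran bcl2fastq and Cell Ranger (version 3.0.0 per the file headers); the deposited matrices hold raw UMI counts for all barcodes, not normalized. The notes name the build hg19, although all gene IDs are mouse; the sources used here do not name the annotation behind the counts.

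Barcodes with at least 500 UMIs, 300 genes and at most 10% mitochondrial UMIs were kept. A lineage needed at least 3 UMIs from at least 2 of its markers, 3-fold above both the next lineage and 20% of the free RNA level; 1222 cells with markers of several lineages (8.48%) and 507 with none (3.52%) were left out. This was the treatment of doublets; Scrublet's own threshold marked 0.0495 to 0.144% of cells and was not used, and an alternative left out its highest scores, up to 0.8% per 1000 cells. Comparisons were limited to the 6 lineages that reached 100 cells in each library. UMIs were summed per lineage and library and scaled to CPM; levels are not divided by length because 1 UMI is 1 captured 3′ end. Intervals are 95%: exact Poisson for levels, conditional binomial for ratios, exact binomial for shares. They cover counting error only. Smoothed ratios add 10 CPM. Shares were also taken after thinning to 1500 (tumour-like) or 800 UMIs. The named genes are the 15 members with the most UMIs, the 3 highest members of each lineage, members called in tumour- or T cell-like cells, and the highest genes of each list plus Slbp, Rrm2, Mcm5, Pcna, Mki67 and Top2a; others were chosen after their values were seen. Members, lists and markers were chosen with earlier results of these data known. Sequences came from GENCODE M21 transcripts. The functions were checked on simulated data. The tools were NumPy 2.4.6, pandas 2.3.3, SciPy 1.17.1, Scanpy 1.11.5 and Matplotlib 3.10.9 under Python 3.11.15. In all, 9 planned and 2 added alternatives were run.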

Additional observations from a re-analysis of the deposited data

Results flagged for a closer look

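In 3 flagged cases a member called in T cell-like cells stood on the other side of control in tumour-like cells. With 1 library per group these differences between lineages were not tested. Hist1h2ap in the combination, also called higher in T cell-like cells, was within counting error of control in tumour-like cells and was not flagged. Hist1h2ap with YKL-5-124 against control had a ratio of 4.96 in T cell-like cells and 0.716 in tumour-like cells. Hist1h2ae in the same comparison had ratios of 5.28 and 0.918. Hist2h2ac with anti-PD-1 against control had ratios of 0.351 in T cell-like cells, from 5 against 19 UMIs, and 1.34 in tumour-like cells.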

How the results depend on the processing

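The weight given to deep cells was the choice with the most effect. Weighting cells equally gave summed histone ratios to control of 1.09 (anti-PD-1), 0.923 (YKL-5-124) and 1.02 (combination) in tumour-like cells and of 0.951, 1.03 and 1.23 in T cell-like cells. Thinning gave 0.936 (YKL-5-124) and 1.05 (combination) in tumour-like cells and 0.825, 0.971 and 1.13 in T cell-like cells, where the YKL-5-124 direction was the opposite of the reported one and 2 members were lower in YKL-5-124 and 1 in the combination. Hist1h1e in T cell-like cells with YKL-5-124, reported at 1.01, was 0.628 with cells weighted equally and 0.509 after thinning. Median-of-ratios scaling gave 0.958 for the YKL-5-124 sum in tumour-like cells.

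Without Hist1h2ap, an alternative chosen after its values were seen, the sums were 1.03 (anti-PD-1) and 1.03 (YKL-5-124) in tumour-like cells, with 0 members higher in anti-PD-1, and 0.955 (anti-PD-1) and 1.76 (combination) in T cell-like cells. The 1 member lower in anti-PD-1 T cell-like cells became 0 with a minimum of 1000 UMIs, 0 with the highest doublet scores left out, 2 with no minimum level and 3 with a pseudocount of 1 CPM, which also made 5 members higher in YKL-5-124. The counts of members under these alternatives and after thinning have no share over all genes beside them. They describe the processing and are not read as results about the members. Of all values recomputed for the sums and counts of members, 162 stayed within their limits and 24 did not. Causes were not tested.

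No paired analysis was possible because each group has 1 library. Depth limits most members: 32 of the 67 had under 100 UMIs in all cells together, and T cell-like results rest on few cells. Library and treatment cannot be told apart, and reads shared by near-identical copies or overlapping models cannot be assigned.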
